A study of Homo sapiens with 12 samples.

Results

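The response of A549 control cells to tunicamycin (TM) was described over all genes that had a feature of their own on the array. A549 is a human lung adenocarcinoma line, and TM blocks the first step of N-linked glycosylation, the transfer of a sugar phosphate to dolichol, so that glycoproteins fold poorly in the endoplasmic reticulum (ER). The comparison rests on 6 of the 12 arrays of the series: 3 arrays of wild-type A549 cells exposed to 3 ug/ml TM for 16 h and 3 of the same cells exposed to DMSO for 16 h. The other 6 arrays hold A549 cells in which TUSC3, a subunit of the oligosaccharyltransferase (OST) that attaches N-glycans, was knocked out with a CRISPR construct (TUSC3 KO), under the same exposures. Both genotypes were grown in RPMI medium with fetal bovine serum. Of 70523 features on the array, 23781 carried a single gene symbol, and they gave 22411 genes, each read from its brightest feature. No source used here says whether the 3 arrays of a group came from separate cultures, so p-values measure the spread between these arrays, which may be technical.

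Values are log2 values from RMA, a method that corrects background, equalizes the distributions of the arrays and sums the probes of a transcript into 1 value. A log2 difference of 1 between TM and DMSO is a 2-fold change. Each difference was tested with limma, its spread for a gene taken from all 12 arrays, and the p-values of the 22411 genes were adjusted by the Benjamini-Hochberg method. A gene was called higher or lower, here also written as rose or fell, at an adjusted p under 0.05. The arrays give no call of signal over background, and the median of all features was 4.77. A difference from a group whose mean lay below that value is taken as a lower bound and written with "at least".

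The ER unfolded protein response (UPR) is run by 3 sensors of the ER membrane. ATF6 is cut into a transcription factor that drives ER chaperones, IRE1 (ERN1) splices the XBP1 transcript, and PERK (EIF2AK3) slows translation and lets ATF4 drive amino acid genes and DDIT3, which encodes CHOP. Epithelial tumour cells also secrete and display many glycoproteins, and slowing of the cell cycle and of secretion are known companions of lasting ER stress.

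With TM, 2518 genes rose (11.2% of those tested) and 3046 fell (13.6%). The counts of every list below are to be read beside these shares. Genes whose mean lay below the median of all features in every group are called dim here. With dim genes left out, 2432 of 15880 rose and 3056 fell, a larger share each way. After a second quantile normalization 2902 genes rose and 2901 fell, so the larger count of falls depends on scaling. Rises above 2-fold were found for 102 genes (0.455%) and falls above 2-fold for 122 (0.544%). The median gene moved by 0.025 on the log2 scale, with quartiles of -0.056 and 0.091. Most calls were small, with a median of 0.27 among the genes that rose and -0.31 among those that fell. More than 4-fold changes were reached by 9 genes upward and 12 downward. Control arrays of the same exposure correlated at 0.998 over all genes, which are not independent replicates, and those of different exposure at 0.988 to 0.990.

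**Figure D1:**
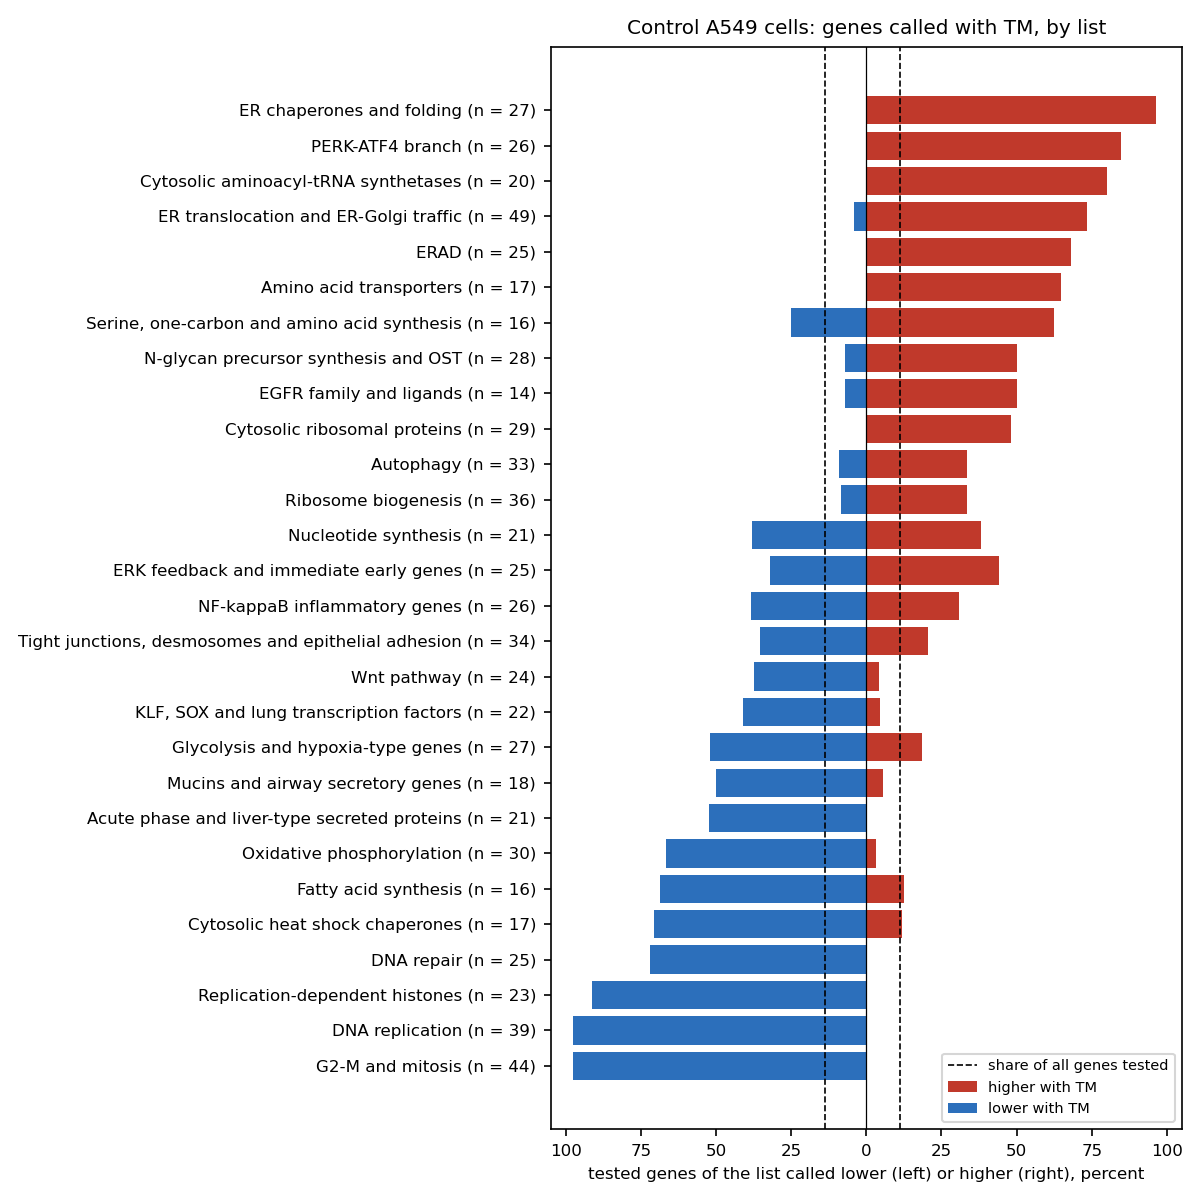
Share of the tested genes of each list that were called higher (right) or lower (left) with TM in control cells, in percent, with the number of genes tested in brackets. The dashed lines mark the share of all genes, 11.2% higher and 13.6% lower, and the ER chaperone bar (26 of 27) and the G2-M bar (43 of 44) reach furthest to the 2 sides.

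The highest measured rise belonged to NIBAN1, a stress-induced cytosolic protein also known from translation control. Its values were 3.76, 3.72 and 3.84 under DMSO and 8.13, 8.25 and 8.12 under TM. All TM arrays lay far above all DMSO arrays, and the rise was at least 4.39 (SE 0.05, adjusted p = 6.6e-13 from limma), since the DMSO mean lay below the median of all features. DDIT3 had 4.40, 4.43 and 4.63 under DMSO and 7.10, 7.10 and 7.10 under TM, a rise of at least 2.61. The groups did not overlap for either gene, which also held for 38.6% of all genes. Genes picked for the size of this difference are bound to have groups far apart, so separation adds no support for them. CLGN, a calnexin-like chaperone best known from testis, rose by at least 2.18 and RAB39B, a small GTPase of vesicle traffic, by at least 2.10. SLFN5, a Schlafen family protein, rose by 2.06, LURAP1L by 2.00 and MOCOS, which sulfurates the molybdenum cofactor, by 1.76.

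The list of ER chaperones and folding enzymes moved almost as a whole. Of 27 genes tested, 26 were higher, none was lower and 1 was not called, with a median of 0.86 against 0.025 over all genes, and 12 of the 26 rose by more than 2-fold. HYOU1, an ER chaperone of the HSP110 type, had 8.34, 8.35 and 8.43 under DMSO and 10.87, 10.87 and 10.83 under TM. The groups did not overlap, as for 38.6% of all genes, and the rise was 2.48 (SE 0.03, adjusted p = 6.6e-13 from limma), or 5.58-fold. HSPA5, the main ER chaperone BiP, had 11.14, 11.07 and 11.17 under DMSO and 12.84, 12.82 and 12.82 under TM, with a rise of 1.70 (SE 0.03, adjusted p = 3.6e-11 from limma). PDIA4, a protein disulfide isomerase, rose by 1.77, the co-chaperone DNAJC3 by 1.57 and DNAJB11, another J-domain partner of BiP, by 1.37. ERO1A, an oxidase that recharges disulfide isomerases, was the gene not called, at 9.81 under DMSO and 9.80 under TM, while its paralog ERO1B rose by 1.30.

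Degradation and traffic genes of the ER rose less evenly. Of 25 ERAD genes tested, 17 were higher, none was lower and 8 were not called, with a median of 0.30. HERPUD1, which brings ubiquitin ligase complexes of the ER membrane together, had 8.58, 8.59 and 8.65 under DMSO and 10.92, 10.97 and 11.01 under TM. It rose by 2.36 (SE 0.03, adjusted p = 1.3e-12 from limma), and the groups did not overlap, as for 38.6% of all genes. SEL1L, the partner of the ligase HRD1, had 8.75, 8.62 and 8.76 under DMSO and 10.76, 10.77 and 10.72 under TM, a rise of 2.04. SYVN1, which encodes HRD1, rose by 1.55, SELENOS by 1.24 and DERL2, a channel component, by 1.14. The cytosolic end of the pathway moved little: VCP, the ATPase that pulls substrates out, rose by 0.21, and its cofactors NPLOC4 and UFD1 were not called at -0.04 and 0.01.

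Among 49 genes of ER translocation and ER to Golgi traffic, 36 were higher, 2 were lower and 11 were not called, with a median of 0.44. SEC24D, a cargo adaptor of COPII vesicles, rose by 1.54 and SEC11C, of the signal peptidase, by 1.12. The translocon channel SEC61A1 rose by 1.04 and SSR3, of the translocon-associated complex, by 1.03. The 2 that fell were SRP14, of the signal recognition particle, by a log2 difference of -0.33, and KDELR1, which returns ER proteins from the Golgi, by -0.10, a call lost when any 1 control array was left out. The 11 not called lay between -0.13 (SEC24A) and 0.10 (KDELR3).

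The N-glycan pathway, which TM inhibits, was split. Of 28 genes of precursor synthesis and the OST, 14 were higher, 2 were lower and 12 were not called, with a median of 0.21. DPAGT1, the enzyme that TM itself inhibits, had 7.01, 7.03 and 7.002 under DMSO and 7.66, 7.57 and 7.56 under TM, a rise of 0.58 (SE 0.04, adjusted p = 3.6e-07 from limma). DPAGT1 lay outside the rule for named genes and was picked as the target of the drug. MAGT1, the OST subunit paralogous to TUSC3, had 8.60, 8.46 and 8.56 under DMSO and 10.001, 10.01 and 10.01 under TM and rose by 1.47. STT3A, a catalytic subunit, rose by 1.03, whereas TUSC3 itself was not called at 7.10 under DMSO and 6.94 under TM (-0.15, adjusted p = 0.12 from limma). ALG6, a glucosyltransferase of the precursor, fell by 0.32 and DPM1, of dolichol phosphate mannose synthesis, by 0.13, a call that some settings did not keep. In the hexosamine pathway, which makes the sugar nucleotide that DPAGT1 uses, GFPT1, the rate-limiting enzyme, rose by 1.55 and GNPDA2, which runs the reverse reaction, fell by 0.41. Of its 11 tested genes, 5 were higher and 1 lower.

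Promoters were searched for the letters known as ER stress response elements. RefSeq promoter windows (GRCh38.p14) of 300 bases, 250 before and 50 after a start site, were searched on both strands. The element ERSE (CCAAT, 9 bases of any kind, CCACG) was found in 27 of 35116 windows (0.0769%). Among the tested genes with a window, 19 of 15374 held it (0.124%), of which 13 were called higher and 0 lower, and 7 of the 25 ER chaperone genes with a window held it (HSPA5, CALR, CANX, CRELD2, ERO1B, PDIA6 and SERP1). XBP1 also held it, and its RNA was not called (-0.04), although a splice form cannot be seen in a value that sums the whole transcript. ERSE-II (ATTGG, 1 base, CCACG) was found in 0.0541% of windows and in 17 tested genes, 8 of them called higher, 2 lower. HERPUD1, HYOU1 and SDF2L1 were among these 8. Of the 82 genes with a window that rose by more than 2-fold, 4 held ERSE (4.88%) and 2 held ERSE-II (2.44%). A match is a description of the letters, not proof of a bound site. The 250 bases before the start site of HSPA5, HYOU1 and HERPUD1 are given 5′ to 3′ on the gene's strand, because they carry the elements just described, with ERSE or ERSE-II in capitals. For HERPUD1 the letters TTGCATCA are in capitals too.
HSPA5 (chr9:125241344-125241593, minus strand): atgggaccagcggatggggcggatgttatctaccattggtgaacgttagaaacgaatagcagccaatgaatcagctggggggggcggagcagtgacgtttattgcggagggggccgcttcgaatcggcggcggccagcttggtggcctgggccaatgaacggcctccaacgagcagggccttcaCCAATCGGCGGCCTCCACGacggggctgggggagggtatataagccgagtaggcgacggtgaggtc
HYOU1 (chr11:119057206-119057455, minus strand): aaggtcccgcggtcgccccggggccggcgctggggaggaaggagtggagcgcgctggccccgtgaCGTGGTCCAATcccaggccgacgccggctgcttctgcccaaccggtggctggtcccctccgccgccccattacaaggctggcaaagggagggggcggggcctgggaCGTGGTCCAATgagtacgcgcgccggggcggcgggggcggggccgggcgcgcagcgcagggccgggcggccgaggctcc
HERPUD1 (chr16:56931892-56932141, plus strand): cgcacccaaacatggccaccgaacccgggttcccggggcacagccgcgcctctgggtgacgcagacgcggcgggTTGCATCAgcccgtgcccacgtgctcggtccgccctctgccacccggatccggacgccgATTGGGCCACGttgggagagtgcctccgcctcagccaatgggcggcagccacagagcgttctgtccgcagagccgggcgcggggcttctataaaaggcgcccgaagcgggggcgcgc

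HSPA5 holds 1 exact match to the ERSE letters, which begins 66 bases before the start site, inside 250 bases that contain further CCAAT boxes. Looser forms of the element were not searched. HYOU1 holds ERSE-II letters at 2 places on the opposite strand, which begin 185 and 79 bases before the start. In HERPUD1 the ERSE-II begins 117 bases and the TTGCATCA 176 bases before the start, so that the gene, whose RNA rose by 2.36, carries the letters linked with ATF6 and with ATF4.

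In a list of PERK and ATF4 genes that also held ATF6, ERN1 and XBP1 of the other sensors, 22 of 26 tested genes were higher, none was lower and 4 were not called, with a median of 0.76. After NIBAN1 and DDIT3, the highest values belonged to GADD45A, a growth arrest protein (1.37), TRIB3, a pseudokinase (1.32), and CHAC1, a glutathione-degrading enzyme (1.25). PPP1R15A, the phosphatase subunit that ends the translation block, rose by 1.24. The sensors themselves rose as well, EIF2AK3 by 0.83, ATF6 by 0.70 and ERN1 by 0.64. ATF4, which is controlled mostly at translation, rose by only 0.30. CEBPD and GADD45B were not called, at -0.08 and 0.03.

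Amino acid genes followed. The cytosolic aminoacyl-tRNA synthetases, which charge tRNAs for translation, had 16 of 20 genes higher and none lower, with a median of 0.44. WARS1, of tryptophan, had 7.97, 7.87 and 8.004 under DMSO and 9.78, 9.83 and 9.82 under TM. It rose by 1.86 (SE 0.04, adjusted p = 6e-11 from limma) without overlap of the groups, as for 38.6% of all genes. AARS1, of alanine, had 9.33, 9.32 and 9.44 under DMSO and 10.65, 10.66 and 10.59 under TM, a rise of 1.27. SARS1 rose by 1.01, GARS1 by 0.97 and MARS1 by 0.94, while QARS1, RARS1, HARS1 and VARS1 were not called, at -0.07 to 0.11. The mitochondrial synthetases, encoded by separate genes, did not share this pattern: 2 of 16 were higher (WARS2, 0.26, and MARS2, 0.23), IARS2 was lower (-0.28) and 13 were not called, with a median of 0.013. No test compared the 2 lists with each other.

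The letters TTGCATCA, a form of the C/EBP-ATF element to which ATF4 and CHOP dimers bind, were found in 0.866% of the 35116 windows and in 145 of 15374 tested genes (0.943%). Of 17 cytosolic synthetase genes with a window, 6 held it (AARS1, CARS1, IARS1, MARS1, NARS1 and TARS1), all 6 called higher. Among the 82 genes with a window that rose by more than 2-fold, 6 held it, and among the 85 that fell by more than 2-fold, 0 did, where 0 says only that these letters are not in these windows. AARS1 is shown with the element in capitals, which begins 187 bases before the start.
AARS1 (chr16:70289507-70289756, minus strand): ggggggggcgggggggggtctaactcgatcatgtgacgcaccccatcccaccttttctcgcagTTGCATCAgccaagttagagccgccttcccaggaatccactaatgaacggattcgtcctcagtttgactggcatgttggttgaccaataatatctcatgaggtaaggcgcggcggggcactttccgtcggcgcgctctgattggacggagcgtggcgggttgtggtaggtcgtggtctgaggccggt

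In serine, one-carbon and amino acid synthesis, 10 of 16 genes were higher and 4 lower. ALDH1L2, a mitochondrial enzyme of the folate cycle, had 5.85, 5.67 and 5.92 under DMSO and 7.79, 7.86 and 7.91 under TM, a rise of 2.04. The aspartate aminotransferase GOT1 rose by 1.33, asparagine synthetase (ASNS) by 1.12 and PSAT1, of serine synthesis, by 1.08. The members that fell were the cytosolic folate enzymes SHMT1 (-0.32) and MTHFD1 (-0.30), the cysteine-forming enzyme CTH (-0.48, at least, as its TM mean was 4.44) and glutamine synthetase (GLUL, -0.22). BCAT1, the cytosolic aminotransferase of branched amino acids, was in no list and had 5.79, 5.67 and 5.83 under DMSO and 7.53, 7.53 and 7.54 under TM, a rise of 1.77. Of 17 amino acid transporters, 11 were higher and none lower, led by SLC3A2 (1.03), the shared heavy chain of several of them, SLC7A1 (1.00) and SLC6A9 (0.98). SLC38A2, a transporter known to respond to amino acid supply, was not called at -0.02.

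**Figure D2:**
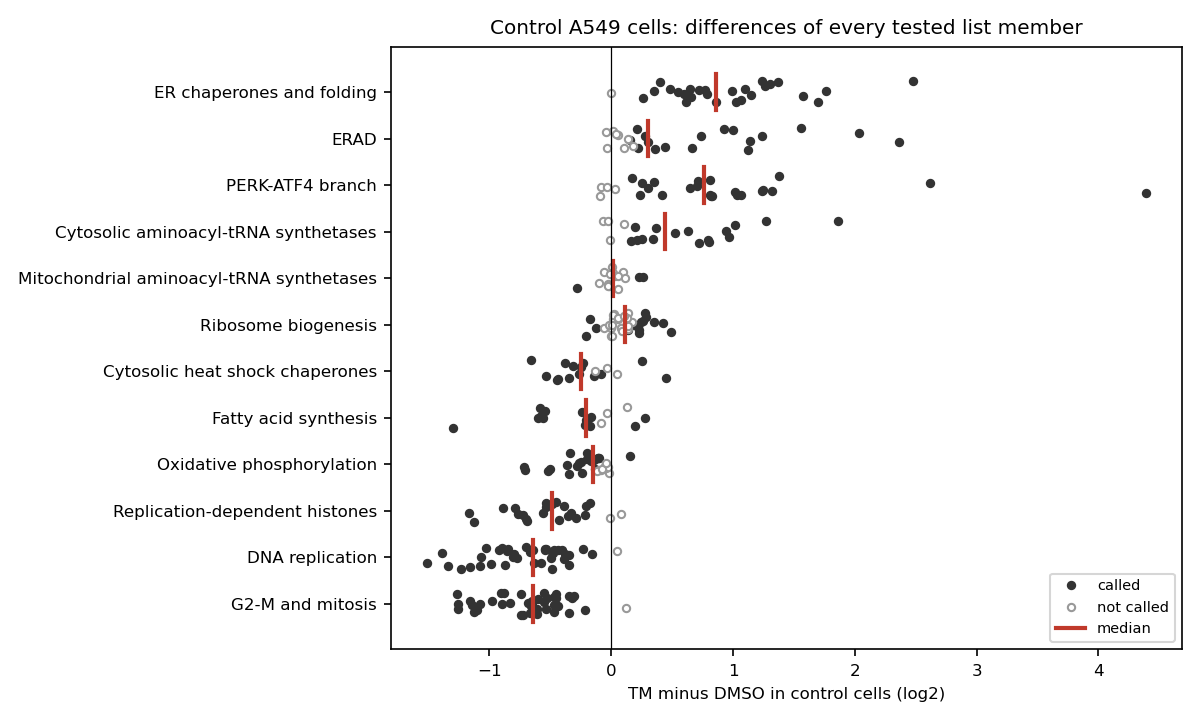
TM minus DMSO in control cells (x axis, log2) for every tested member of 12 lists (y axis). Filled points were called, open points were not, and red bars are medians, which run from 0.86 for ER chaperones to -0.65 for G2-M and mitosis.

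Genes outside the UPR rose too. In the EGFR family, whose members are growth factor receptors and their ligands, 7 of 14 genes were higher and 1 lower, with a median of 0.25. EREG, the ligand epiregulin, had 8.27, 8.10 and 8.21 under DMSO and 9.94, 9.93 and 9.91 under TM, a rise of 1.73 (SE 0.05, adjusted p = 4.3e-10 from limma). The receptor EGFR had 8.05, 7.98 and 7.96 under DMSO and 9.37, 9.37 and 9.41 under TM, a rise of 1.39. For both genes every TM array was above every DMSO array, and groups did not overlap for 38.6% of all genes. The ligand BTC rose by at least 0.87 and NRG1 by 0.57, whereas the receptor ERBB3 fell by 0.78.

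Tight junction genes went both ways. OCLN, the junction protein occludin, had 7.81, 7.72 and 7.87 under DMSO and 9.34, 9.43 and 9.39 under TM and rose by 1.58, CLDN1 rose by 1.19 and ESRP1, an epithelial splicing regulator, by 1.18. CLDN2, a claudin of leaky epithelia, had 7.35, 7.47 and 7.42 under DMSO and 5.69, 5.53 and 5.64 under TM and fell by 1.79. Of 34 genes of epithelial adhesion, 7 were higher, 12 were lower and 15 were not called. Among those that fell were CEACAM1 (-0.91), the transcription factor EHF (-0.84), the junction protein JUP (-0.83) and the receptor CXADR (-0.77). CDH1, the epithelial cadherin, was not called at -0.01.

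Smaller groups held single genes with high rises. In autophagy, 11 of 33 genes were higher and 3 lower, led by WIPI1, which binds the forming autophagosome (1.74), MAP1LC3B (1.07) and the receptor SQSTM1 (0.79). GABARAP and GABARAPL2, of the same ATG8 family as MAP1LC3B, fell by 0.34 and 0.33. Lysosomal genes had 5 of 28 higher and 9 lower, beside 11.2% higher and 13.6% lower over all genes. Cathepsin B (CTSB) was at -0.44 and the proton pump subunit ATP6V0A1 at 0.64. Of 20 genes of ER calcium handling, 9 were higher and 1 lower, and NUCB2, a calcium-binding protein, rose by 1.54. ERAP1, which trims peptides for class I molecules inside the ER, rose by 1.08 and LAMP3, a lysosomal membrane protein, by at least 1.31. Among secreted stress factors, 10 of 15 genes were higher and 1 lower. The largest rises were those of EREG (1.73), counted above in the EGFR list, and CRELD2 (1.15), counted above with the ER chaperones. STC2 rose by 1.12, IGFBP1 by 1.08 and GDF15 by 0.62, endothelin (EDN1) fell by 0.82, and FGF21, a stress hormone of liver, was not called at a DMSO mean of 4.22. The zinc transporter SLC39A14 rose by 1.00 while SLC39A10 fell by 1.14 and the metallothionein MT1X by 0.84.

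TXNIP and ARRDC4, paralogous arrestins that limit glucose uptake, rose, while the list of glucose-sensing genes that holds them had 4 of 12 higher, 4 lower and 4 not called. TXNIP rose by at least 1.58 from a DMSO mean of 4.37 and ARRDC4 by 1.93 from 4.88. ARRDC3, of the same arrestin family, fell by 0.65. In the same list PDK4, the kinase that shuts the pyruvate dehydrogenase of mitochondria, had 8.57, 8.49 and 8.54 under DMSO and 4.95, 5.0 and 5.02 under TM. This was the deepest measured fall of all genes, -3.54 (SE 0.04, adjusted p = 4.9e-13 from limma), or 11.7-fold. Its paralog PDK3 fell by 0.73 and PDK2 by 0.25, while the repressor KLF11 rose by 0.29 and PDK1 by 0.16.

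**Figure D3:**
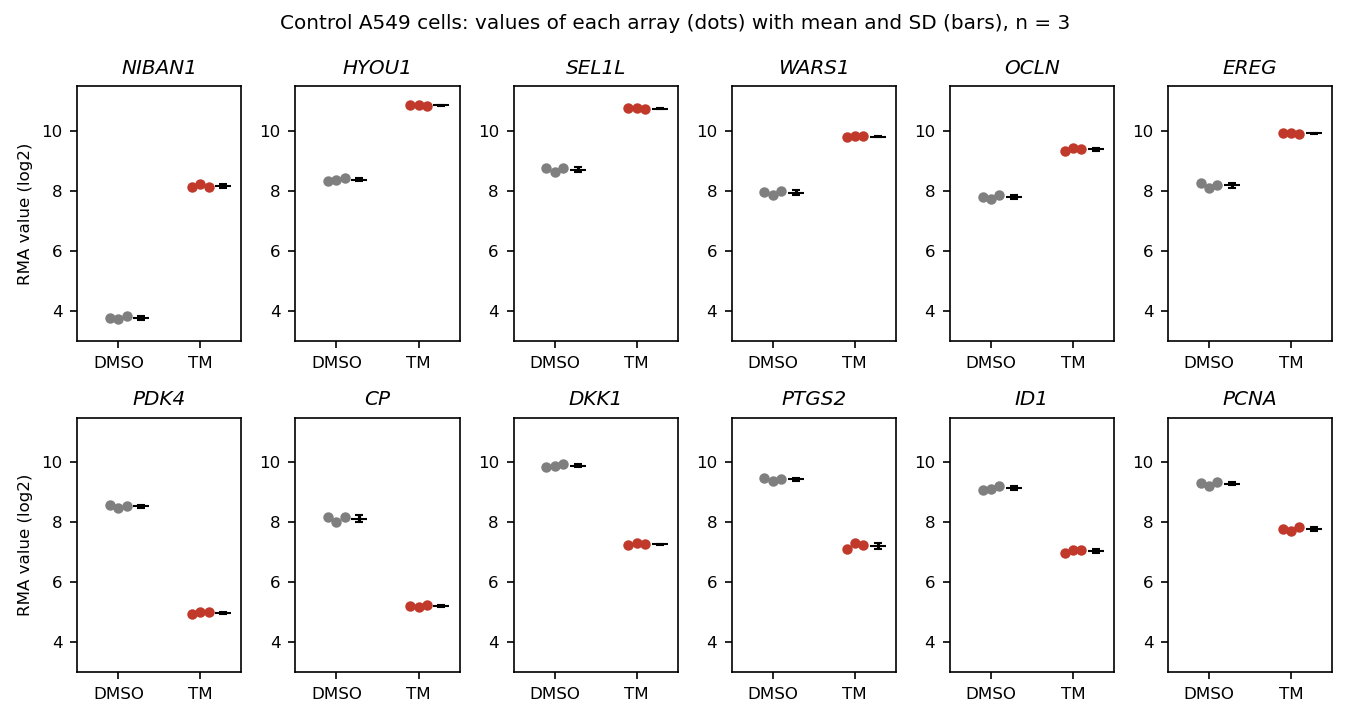
RMA values (log2, y axis) of the 3 DMSO and 3 TM arrays of control cells for 6 genes that rose (top) and 6 that fell (bottom), with the mean and SD (n = 3) beside the dots. In each panel the arrays of the 2 exposures lie apart, from NIBAN1 (4.39) to PDK4 (-3.54). Arrays of the 2 exposures did not overlap for 38.6% of all genes.

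Genes of DNA replication and of mitosis fell with 1 exception in each list. Of 39 genes of DNA replication, 38 were lower, none was higher and only CDC6, which loads the helicase, was not called (0.05), with a median of -0.64. PCNA, the sliding clamp of DNA polymerases, had 9.33, 9.22 and 9.33 under DMSO and 7.78, 7.73 and 7.85 under TM. The groups did not overlap, as for 38.6% of all genes, and the RNA fell by 1.51 (SE 0.04, adjusted p = 6.4e-10 from limma). MCM10 had 7.93, 7.87 and 7.95 under DMSO and 6.51, 6.46 and 6.62 under TM and fell by 1.39, and MCM6, a subunit of the replicative helicase, fell by 1.34. DTL, which marks licensing factors for destruction, fell by 1.23 and GINS2, of the helicase complex, fell by 1.16.

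Of 44 G2-M and mitosis genes, 43 were lower and none was higher, with a median of -0.65. CDK1, the kinase that starts mitosis, had 7.83, 7.66 and 7.87 under DMSO and 6.44, 6.53 and 6.60 under TM and fell by 1.26 (SE 0.09, adjusted p = 6.3e-07 from limma). KIF11, the motor that separates spindle poles, fell by 1.26, ANLN, of the cleavage furrow, by 1.25 and MKI67, the proliferation antigen Ki-67, fell by 1.16. CDC20, an activator of the anaphase ligase, was the member not called (0.12). DNA repair genes had 18 of 25 lower and none higher (median -0.51), led by the helicase BRIP1 (-1.45) and the nuclease EXO1 (-1.43). Of 23 replication-dependent histone genes tested, 21 were lower, led by H2BC14 (-1.17) and H2BC3 (-1.13). Histone genes are near-identical copies and 29 of the 52 listed had no feature of their own, so these values may mix several genes. FAM111B, a replication-linked protease in no list, fell by at least 2.12.

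The letters bound by E2F factors and by the cell cycle homology region (CHR) complexes divided along the same lines as the 2 lists. TTTCCCGC was found in 1.63% and TTTGGCGC in 0.652% of windows. Of 33 replication genes with a window, 18 held one or both (54.5%), against 3.53% of all tested genes, and 2 of 38 mitosis genes did (CENPA and NUSAP1). TTTGAA, the CHR, is short and common, in 15.2% of windows and 16.2% of tested genes. It was held by 27 of 38 mitosis genes (71.1%) and by 0 of 33 replication genes. PCNA and CDK1 are shown as examples, with TTTCCCGC (as its complement, 59 bases before the start) and TTTGAA in capitals. CDK1 has several start sites, and the one with most matches was chosen.
PCNA (chr20:5126623-5126872, minus strand): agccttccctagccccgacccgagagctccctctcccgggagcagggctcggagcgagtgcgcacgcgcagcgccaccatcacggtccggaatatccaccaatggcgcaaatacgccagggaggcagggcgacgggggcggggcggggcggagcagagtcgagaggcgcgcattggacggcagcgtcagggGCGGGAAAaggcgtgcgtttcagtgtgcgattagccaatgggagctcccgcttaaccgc
CDK1 (chr10:60778228-60778477, plus strand): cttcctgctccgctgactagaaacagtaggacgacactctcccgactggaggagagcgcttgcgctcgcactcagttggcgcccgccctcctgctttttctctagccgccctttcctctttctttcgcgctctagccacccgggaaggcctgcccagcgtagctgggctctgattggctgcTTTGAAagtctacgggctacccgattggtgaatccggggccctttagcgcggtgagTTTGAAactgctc

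Growth genes that feed the cell cycle were not uniformly low. Among 21 nucleotide synthesis genes, 8 were higher and 8 lower. The DNA precursor enzymes TYMS (-1.01), RRM2 (-0.94), TK1 (-0.73) and DUT (-0.63) fell. CTPS1, which makes CTP, had 7.78, 7.77 and 7.83 under DMSO and 9.22, 9.26 and 9.27 under TM, a rise of 1.46, and the purine enzymes ADSL (0.31) and GART (0.30) rose by less. Ribosome biogenesis had 12 of 36 genes higher (20 after a second quantile normalization) and 3 lower, with RRP12 at 0.49 and RRN3, a factor of RNA polymerase I, at 0.43. Of 29 ribosomal proteins, 14 were higher and none lower, with a median of 0.083 and the highest value at 0.25 (RPS12). In the list of cell cycle inhibitors and G1 cyclins, 9 of 18 were lower, with CDK2 at -0.87 and CCND3 at -0.79, and 5 were higher, with CDK6 at 0.39.

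In fatty acid synthesis, 11 of 16 genes were lower and 2 higher (median -0.21). SCD, the desaturase that makes oleate, had 10.89, 10.86 and 10.85 under DMSO and 9.62, 9.54 and 9.53 under TM and fell by 1.30, and FADS2, ACACA and ACLY fell by 0.60, 0.58 and 0.58. The regulator SREBF1 fell by 0.54. Cholesterol genes had 9 of 20 lower and 2 higher, with INSIG1 at -0.70 and DHCR7, of the last step of synthesis, at -0.64, against HSD17B7 at 0.54. In glycolysis and hypoxia-type genes, 14 of 27 were lower and 5 higher: the glucose transporter SLC2A3 fell by 1.03 and its paralog SLC2A1 rose by 0.79. Oxidative phosphorylation had 20 of 30 genes lower and 1 higher (median -0.15), led by the complex I subunits NDUFV2 (-0.71) and NDUFB3 (-0.71). Only UQCRC1 rose (0.15).

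Cytosolic heat shock chaperones moved against their ER counterparts. Of 17 genes, 12 were lower and 2 higher, with a median of -0.25. HSPB1 had 9.55, 9.69 and 9.63 under DMSO and 9.01, 8.98 and 8.91 under TM and fell by 0.66. HSPA1A fell by 0.53, HSPA4L by 0.45 and HSP90AA1 by 0.43. The 2 that rose were SERPINH1 (0.45), a collagen chaperone that works in the ER although it is counted among heat shock proteins, and the regulator HSF1 (0.25). In mitochondria, 6 of 15 chaperones and proteases were higher and 1 lower, with LONP1 at 0.65 and HSPA9, the mitochondrial HSP70, at 0.53, against HSPE1, the small chaperonin, at -0.59. The proteasome had 12 of 30 genes lower and 4 higher, all within -0.39 (PSMA2) to 0.16 (PSMA5), but after a second quantile normalization 7 were lower and 8 higher.

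Of 21 acute phase and liver-type secreted proteins, 11 were lower, none was higher and 10 were not called. CP, the copper-carrying ceruloplasmin, had 8.19, 8.0 and 8.19 under DMSO and 5.21, 5.20 and 5.24 under TM. The groups did not overlap, as for 38.6% of all genes, and the RNA fell by 2.91 (SE 0.06, adjusted p = 3.6e-11 from limma). APOH, an apolipoprotein of plasma, had 8.67, 8.53 and 8.66 under DMSO and 5.69, 6.24 and 6.04 under TM and fell by 2.63. The fibrinogen chains fell together, FGB by 1.73, FGG by 1.63 and FGA by 0.99, and so did FGL1, a fibrinogen-like protein (-1.34, at least). The members not called had DMSO means from 3.45 (A2M) to 5.43 (AMBP).

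Mucins and airway secretory genes had 9 of 18 lower and 1 higher. MUC5B, a gel-forming mucin, had 9.11, 9.09 and 8.95 under DMSO and 7.42, 7.41 and 7.50 under TM and fell by 1.60. SLPI, a protease inhibitor of airway fluid, fell by 1.01, the membrane mucin MUC13 by 0.98, MUC5AC by 0.78 and SPDEF, a transcription factor of mucous cells, by 0.71. AGR2, an ER-resident disulfide isomerase needed for mucins, rose by 0.44. TM4SF4, a tetraspanin-like membrane protein, fell by 2.07, NTS, the peptide neurotensin, fell by 1.91, and the ion transporter SLC12A2 by 2.16. MMD fell by 2.12 and MTUS1 fell by 1.78. In the matrix list, 9 of 46 genes were higher and 9 lower, beside 11.2% higher and 13.6% lower over all genes. Fibronectin (FN1) was at -1.20, VCAN at -0.83 and COL12A1 at 0.81.

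Signalling genes fell selectively. DKK1, a secreted inhibitor of Wnt receptors, had 9.83, 9.90 and 9.94 under DMSO and 7.26, 7.30 and 7.28 under TM and fell by 2.61 (SE 0.05, adjusted p = 2.6e-11 from limma). RNF43 and ZNRF3, ligases that remove Wnt receptors, fell by 1.46 and 0.46, and AXIN2, which Wnt signals induce, by 0.68. The Wnt list had 9 of 24 genes lower and 1 higher. ID1, an inhibitor of helix-loop-helix factors that BMP signals induce, had 9.08, 9.12 and 9.22 under DMSO and 6.98, 7.09 and 7.08 under TM and fell by 2.09. Its relatives ID2 and ID3 fell by 0.90 and 0.64, HES1, a Notch target, fell by 1.21 and SOX9 by 1.02. Of 22 genes in that list of transcription factors, 9 were lower, and PPARG was the 1 that rose (0.30).

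Immediate early genes were divided. EGR1 had 7.44, 7.56 and 7.51 under DMSO and 5.08, 4.59 and 5.72 under TM and fell by 2.37, and FOS fell by 1.53, ETV4 by 0.50 and FOSB by 0.49. In the same list of ERK feedback genes, 11 of 25 were higher, led by ATF3 (0.81) and ETV5 (0.54), and 8 were lower. Inflammatory genes of the NF-kappaB type had 10 of 26 lower and 8 higher. PTGS2, the inducible cyclooxygenase, had 9.49, 9.40 and 9.44 under DMSO and 7.11, 7.30 and 7.26 under TM and fell by 2.22. PLA2G4A, the phospholipase that frees its substrate arachidonate, fell by 2.49, CCL20 by at least 1.14 and CXCL1 by 0.83, while NFKB2 rose by 0.80. Of 34 interferon-stimulated genes, 8 were lower, with the 2-5A synthetase OAS1 at -1.16, 5 were higher and 21 were not called. In the list of known IRE1 decay substrates, 7 of 22 were lower and 3 higher, beside 13.6% lower and 11.2% higher over all genes, dim ones included. BLOC1S1, the substrate most often used, fell by 0.73 and RPN1 rose by 0.64.

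In the BCL2 family and apoptosis list, 9 of 24 genes were higher and 3 lower, with the death receptor TNFRSF10B at 1.02 and PMAIP1 at 0.38, while BAX (-0.01) and BCL2 (-0.06) were not called. NRF2 targets had 10 of 26 higher and 7 lower, with a median of -0.02 and ALDH3A1 at -0.33. The highest of them, SLC7A11 at 0.75, was also counted among the amino acid transporters. Integrins had 1 of 20 higher (ITGA3, 0.42) and 4 lower (ITGB5, -0.95, the deepest). Mesenchymal transition markers had 6 of 16 higher, with CDH2 at 0.62, and 4 lower, with FN1 at -1.20, S100A4 at -0.79 and SNAI1 at -0.67. Over all genes, 11.2% were higher and 13.6% lower, and no list here was tested against those shares.

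The cells carried the RNA known from this line. The mean of 9 A549 epithelial markers ran from 10.40 to 10.43 in the DMSO arrays and from 10.29 to 10.31 in the TM arrays, which did not overlap. Of these, KRT8 (-0.37), KRT19 (-0.37) and EPCAM (-0.33) were lower and KRT7 was higher (0.23), with KRT8 at 11.84 and AKR1B10 at 12.48 under DMSO. The alveolar surfactant gene SFTPC, which defines the type II cells that A549 is often taken to model, stood at 5.24, and 12 of 13 alveolar and airway markers were not called. No fibroblast (9 tested), blood (9) or endothelial (10) marker was called, and the array means of these lists lay between 4.39 and 4.51. Single members lay higher, with DMSO means of control cells up to 6.55, 7.83 and 6.31 in the 3 lists. Under DMSO, 4, 6 and 5 members lay below the median of all features. Of 12 housekeeping genes, 7 were lower and none higher, with a median of -0.16 and POLR2A at -0.59. GAPDH (0.01), ACTB (-0.06) and TBP (0.01) were not called. RMA brings the probe values of the arrays to a common distribution, so neither the RNA per cell nor the number of cells can be read from these arrays.

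The control response was then set beside that of TUSC3 KO cells, in which 2806 genes rose (12.5%) and 3338 fell (14.9%). TUSC3 lay between 5.50 and 5.78 in the 6 TUSC3 KO arrays and between 6.90 and 7.16 in the 6 control arrays. Both genotypes called 1635 genes higher (64.9% of the control calls and 58.3% of the TUSC3 KO calls) and 2074 lower (68.1% and 62.1%), and 113 were called in opposite directions. The difference between the responses was tested as an interaction: 837 genes (3.73%) had a higher and 936 (4.18%) a lower response in control cells. Of the 122 genes that fell by more than 2-fold in control cells, 64 fell less in TUSC3 KO cells by this test, 10 fell further and 48 were not called. Of the 102 that rose by more than 2-fold, 26 rose less in TUSC3 KO cells, 9 rose more and 67 were not called. As these genes were chosen for their size in control cells, a smaller value elsewhere is partly built into the choice.

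Single genes showed differences in both directions. CP moved by -2.91 in control and -1.06 in TUSC3 KO cells, a difference of -1.85 (adjusted p = 5.9e-07 from limma). In mucins and airway genes, 8 of 18 had a lower response in control cells and none a higher one: SLPI moved by -1.01 in control and -0.20 in TUSC3 KO cells. Among epithelial adhesion genes, 13 of 34 had a lower response in control cells and 1 a higher one. TFPI, an inhibitor of coagulation, moved by -0.41 and 0.94. IGFBP1 rose less in control (1.08) than in TUSC3 KO cells (2.86).

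Replication genes went the other way. Of 39 replication genes, 27 fell less in control than in TUSC3 KO cells and none fell further, with medians of -0.64 and -1.01. MCM6 moved by -1.34 in control and -1.71 in TUSC3 KO cells, a difference of 0.37 (adjusted p = 0.016 from limma). Ribosome biogenesis differed by 23 of 36 genes, all with the higher response in control cells, where 12 rose and 3 fell, against 1 and 20 in TUSC3 KO cells. RRP12 moved by 0.49 in control and 0.04 in TUSC3 KO cells. In nucleotide synthesis, 15 of 21 genes had the higher response in control cells, with CTPS1 at 1.46 and 0.53. The rise of BCAT1 was 1.77 for control and 0.74 for TUSC3 KO cells. Of 20 cytosolic synthetases, 8 rose more in control cells and none rose less. The study's methods describe knockout cells grown out of single cells, so a difference between genotypes and one between clones cannot be told apart.

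**Figure D4:**
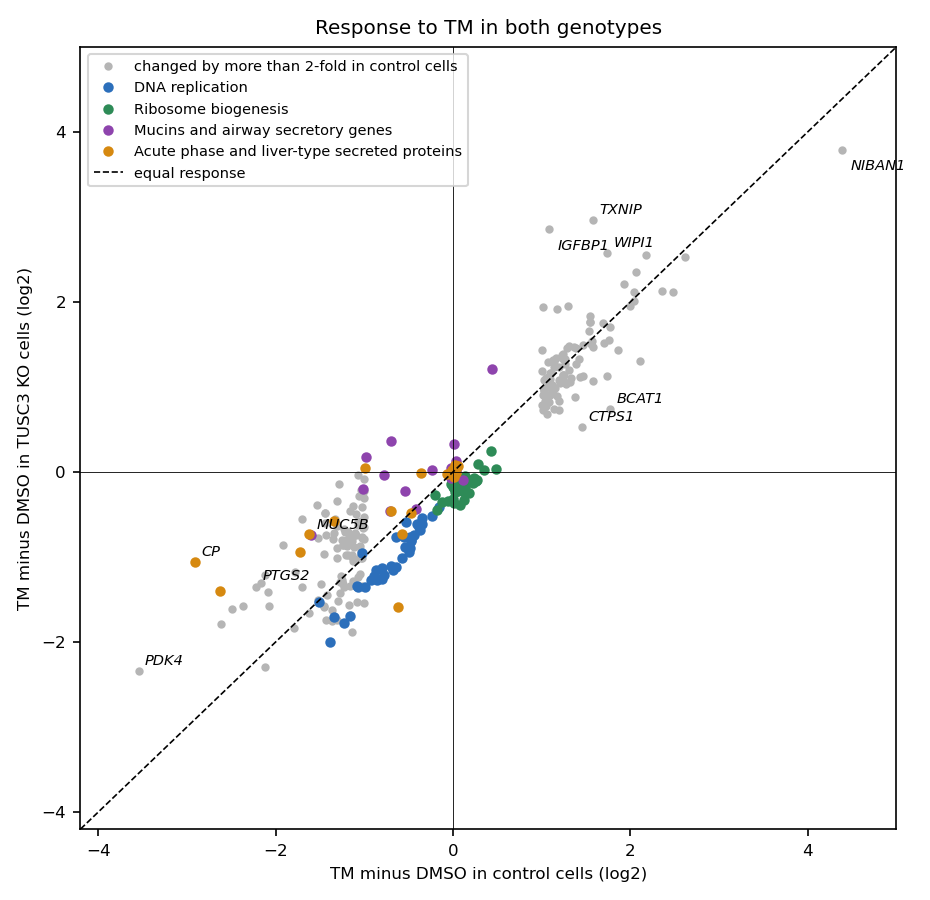
TM minus DMSO (log2) in control cells (x axis) and TUSC3 KO cells (y axis). Grey points are the 102 genes that rose and the 122 that fell by more than 2-fold in control cells, coloured points are all tested members of 4 lists, and on the dashed line both responses are equal. Replication genes (medians -0.64 and -1.01) and most ribosome biogenesis genes lie below the line, CP and MUC5B above it.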

How the data were processed

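RNA of 12 samples was hybridized to human HTA 2.0 arrays, in 4 groups of 3. The deposited values are log2 values that the authors made with RMA; no source used here gives its version or the annotation build. Of the 70523 features, 1543 carried several gene symbols and 45199 none, and neither kind was used. For the 528 genes with several features, the brightest by mean over the 12 arrays was kept, and 306 symbols were updated through the RefSeq table. Values ran from 0.721 to 13.9, with array medians of 4.73 to 4.80. Arrays carry no read depth, so that their number limits the precision.

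Group means were fitted in limma 3.58.1 (R 4.3.3) with a variance trend, and TM was compared with DMSO in control cells, in TUSC3 KO cells and as the difference of both (interaction). Tables, promoter searches and plots were made with Python 3.11.15, numpy 2.4.6, pandas 2.3.3 and matplotlib 3.10.9. On simulated data for control TM against DMSO over 22411 genes, 28 of 50 changes of 0.25, 50 of 50 of 0.5, 49 of 50 of 1 and 50 of 50 of 2 on the log2 scale were recovered, with 14 of 22211 unchanged genes called.

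The members and the 61 gene lists (1510 genes, 1319 tested) were chosen with earlier results of these data known, and no list was tested as a set. Named genes were the 15 largest changes each way, up to 5 called members of a list in its main and 3 in its other direction, the 8 largest interactions each way, genes the study names for the UPR, and defining members not called, with values only. ATF4, CALR, CANX, CARS1, CENPA, DPAGT1, DUT, ERO1B, FGA, FOSB, GDF15, GLUL, IARS1, ID3, NARS1, NUSAP1, PDIA6, PDK2, PPP1R15A, SDF2L1, SERP1, SREBF1, TARS1 and VCP lie outside this rule and were named after their values were seen. The 20 alternatives covered normalization, the variance model, the arrays fitted, a replicate block, the choice of feature, a filter on dim genes, the t-test of the study's methods and leaving out each array.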

Additional observations from a re-analysis of the deposited data

Results flagged for a closer look

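Of the 263 genes named above and in the closing section, 106 responded to TM differently in the 2 genotypes by limma's interaction test at an adjusted p under 0.05. This threshold was passed by 7.91% of all genes. Many named genes were picked for large changes with TM or for large interactions, so the count of 106 cannot be compared with that share. The figure after each gene is the log2 response (TM minus DMSO) of control cells minus that of TUSC3 KO cells. A positive figure means a stronger rise or a shallower fall in control cells. For NIBAN1, RAB39B, TXNIP, FGL1 and CTH a group mean lay below the median of all features, so that their responses are lower bounds and the sizes of the 2 genotypes cannot be ranked. Groups of 3 arrays were not searched for single stray arrays.

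In the UPR, control cells responded more strongly for GADD45A (0.49), HYOU1 (0.36), TNFRSF10B (0.29), TRIB3 (0.26), HERPUD1 (0.23), HSPA5 (0.18) and SEC61A1 (0.15), and the figure of NIBAN1 was 0.60. The ER folding and traffic genes ERO1B (-0.65), KDELR3 (-0.54), ERO1A (-0.41), SRP14 (-0.23) and KDELR1 (-0.22) had the lower response in control cells, as did the sugar genes GFPT1 (-0.21) and DPM1 (-0.21). Amino acid genes were mostly on the positive side, with the synthetases WARS1 (0.42), MARS1 (0.33), AARS1 (0.23) and GARS1 (0.20), the enzymes BCAT1 (1.03), MTHFD1 (0.31), PSAT1 (0.26), SHMT1 (0.24) and GOT1 (0.23) and the transporter SLC7A1 (0.24). The exceptions among those named were SLC38A2 (-0.54) and CTH (-0.47).

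Proliferation genes had positive figures throughout those listed. They were the replication genes MCM10 (0.61), DTL (0.54), GINS2 (0.53) and MCM6 (0.37), the histone H2BC14 (0.52), the mitosis gene CDC20 (0.67), the nucleotide enzymes CTPS1 (0.93), RRM2 (0.49), TYMS (0.34), ADSL (0.28), TK1 (0.27) and GART (0.27), the kinase CDK6 (0.21), the ribosome factor RRP12 (0.45) and the polymerase subunit POLR2A (0.28).

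The plasma proteins were CP (-1.85), APOH (-1.22), FGA (-1.03), FGG (-0.90), FGB (-0.78) and FGL1 (-0.77) and the airway genes MUC13 (-1.15), MUC5B (-0.87), SLPI (-0.81), AGR2 (-0.77) and MUC5AC (-0.74). The adhesion genes were ESRP1 (-0.74), CEACAM1 (-0.73), JUP (-0.63), CDH1 (-0.53), ITGB5 (-0.53), CXADR (-0.37) and EHF (-0.36), with CLDN1 (0.35) on the positive side. The matrix and clotting genes were TFPI (-1.35), VCAN (-0.38) and FN1 (-0.23), and genes outside the lists were NTS (-1.05), MMD (-0.91), PLA2G4A (-0.88), SLC12A2 (-0.85), MTUS1 (-0.61) and TM4SF4 (-0.49).

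In signalling, the figures were negative for DKK1 (-0.82), FOS (-0.75), ID1 (-0.68), SOX9 (-0.61) and HES1 (-0.51), for the inflammatory genes PTGS2 (-0.87) and OAS1 (-0.70) and for the receptor ERBB3 (-0.35), and positive for the ligands NRG1 (0.66) and EREG (0.60) and for NFKB2 (0.55). Among metabolic and stress genes they were negative for IGFBP1 (-1.77), TXNIP (-1.39), PDK4 (-1.20), EDN1 (-0.31), SCD (-0.30), NDUFB3 (-0.25) and AKR1B10 (-0.22). Autophagy and lysosome genes were divided, with WIPI1 (-0.84), GABARAPL2 (-0.24), GABARAP (-0.20) and CTSB (-0.20) against SQSTM1 (0.30). The zinc transporters took opposite sides, with SLC39A14 (0.37) and SLC39A10 (-0.32), and single genes were RAB39B (0.80), GAPDH (0.11) and SLFN5 (-0.29). For genes of other lists the figures were AJUBA (0.16), B2M (-0.16), BHLHE40 (-0.36), EPCAM (-0.24), KRT19 (-0.23), S100A4 (-0.53), SMG5 (0.26) and TGFBR2 (-0.73).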

How the results depend on the processing

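No gene called for TM against DMSO in control cells was called in the opposite direction under any of the 20 alternatives, and the difference between genotypes was not refitted with the control arrays alone or by t-test. Of 395 genes named by rule, 349 kept their side of the threshold in every alternative in which they were checked. The mean of several features was not checked for single named genes, and the fit without dim genes held 390 of the 395. The methods' t-test called 1674 genes higher and 2202 lower after Benjamini-Hochberg (3199 and 3437 at its unadjusted threshold), against 2518 and 3046, and 38 genes with identical values in the 6 control arrays had no such p. Leaving out each array in turn gave 2089 to 2826 higher and 2562 to 3277 lower, 96 to 109 and 112 to 128 past 2-fold, and 532 to 969 higher and 683 to 1172 lower responses in control than in TUSC3 KO cells. The 837 higher responses became 532 to 556 when control DMSO replicate 1, control TM replicate 2 or TUSC3 KO DMSO replicate 2 or 3 was left out. Same-numbered control arrays deviated together at r = -0.065, -0.013 and 0.199, values that cannot decide whether the numbers pair samples. A replicate block called 2869 higher and 3286 lower, with 1069 and 1188 for the difference between genotypes. A second quantile normalization called 2902 higher and 2901 lower, so that the larger count of falls was not kept. Of the 395 named genes, 38 lost their call under the methods' t-test after Benjamini-Hochberg. Without control TM replicate 2 it was 17, and without control DMSO replicate 1 it was 14. Among these 14 were KDELR1, DPM1, MARS2, PDK1 and PSMA5 (adjusted p = 0.065, 0.082, 0.12, 0.059 and 0.092 from limma). Without control TM replicate 2, interferon-stimulated genes had 2 higher rather than 5, the apoptosis list 5 rather than 9 and the proteasome 0 rather than 4. Without control DMSO replicate 1, nucleotide synthesis had 5 higher rather than 8. The causes were not tested. With 3 arrays a group, changes near 0.25 on the log2 scale were often missed in simulation. Far fewer genes changed in that simulation than were called in the data, so the share missed need not be the same.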

Other observations

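Over all genes, 11.2% were higher and 13.6% lower with TM in control cells, and no list here was tested against those shares. Of 18 circadian clock genes, 6 were higher and 3 lower. The nuclear receptor NR1D2 was at 0.64, NPAS2 at 0.62 and the repressor BHLHE40 at -0.45 on the log2 scale. Of 17 SR splicing factors and CLK kinases, which steer splice site choice, 7 were lower and none higher, with SRSF7 at -0.43 the deepest. Of 5 snoRNA host genes tested, 3 were higher, with SNHG8 at 1.05 and EPB41L4A-AS1 at 0.58, and 13 of the 18 listed had no feature of their own. Nonsense-mediated decay factors had 3 of 11 higher, with SMG5 at 0.39, and 2 lower.

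Of 16 class I antigen presentation genes, 5 were higher and 2 lower, with B2M, the light chain of class I molecules, at -0.34. Phospholipid and sphingolipid enzymes had 7 of 27 higher and 7 lower, with SELENOI, of phosphatidylethanolamine synthesis, at 0.48 and the choline kinase CHKA at -0.33. YAP-TEAD and TGF-beta targets had 7 of 25 higher and 9 lower, with AJUBA at 1.13 and the receptor TGFBR2 at -0.91. Receptor tyrosine kinases and ligands outside the EGFR family had 4 of 31 higher, with ROR1 at 0.86, and 7 lower, with FGFR1 at -0.44. Extracellular proteases and inhibitors had 5 of 30 higher, with the sheddase ADAM17 at 0.99, and 9 lower, with ADAMTS9 at -0.76. The counts of this paragraph stand beside 11.2% higher and 13.6% lower over all genes, dim ones included.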
